A study of Mus musculus with 72 samples.

Results

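The genes described here are 44 mouse genes of innate sensing and interferon signalling, out of 1224 genes read on 2 targeted amplicon panels. They were taken by symbol: all genes whose symbol begins with Ifn, Ifi, Irf, Oas, Gbp, Stat and a digit, Jak, Socs or Tlr, together with Tmem173 and Mb21d1, and without Oasl1 and Oas2. The same rule also asked for symbols beginning with Isg or with Mx and a digit, and for Tyk2, and none of the rows analysed here had one. The members had 46 rows, because 2 of them, Ifng among these, were on both panels, and each was read from the panel with its larger total count. Of the 44 members 37 passed the filter on low counts and were tested, and the other 7 (Ifna2, Ifna14, Ifnb1, Oas1d, Oas1e, Oas1f and Oas1h) are given by their counts.

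The tumours came from 36 female BALB/c mice, 6 to 12 weeks old, with 9 mice in each of 4 groups. Every mouse carried 4T1 cells, a mammary carcinoma line of the same strain, injected into the thigh muscle on day -6, and was killed on day 6, after treatment on day 0. Control mice received 400 µg of an isotype antibody, BA mice received 492 µg of bintrafusp alfa (M7824 in the labels), RT mice received radiation and the isotype antibody, and BA+RT mice received both bintrafusp alfa and radiation. Bintrafusp alfa blocks PD-L1 and captures TGF-β in a single molecule. The sources used here do not give the radiation dose, and the tissue is labelled an orthotopic tumor although the cells were placed in muscle. Library totals lay between 959532 and 2616197 counts for panel 1 and between 314621 and 841046 for panel 2, and the irradiated groups had the higher mean totals on both. Of 8 epithelial markers 2 were measured, Epcam and Muc1, and their summed level was 4391 to 14495 CPM (counts scaled to 1 common library size) in the 36 tumours, while none of the 4 skeletal muscle markers of the list was measured. The medians of that sum were 11285, 9432, 6460 and 6917 CPM in control, BA, RT and BA+RT tumours. Against control, Epcam was lower and Muc1 higher in RT and BA+RT, and both were lower in BA (edgeR adjusted p below 0.05). Control mouse 8, RT mouse 27 and BA+RT mouse 40 stood apart in interferon gamma response genes, and control mouse 6 and BA+RT mouse 45 over all genes, and several results that rest on them are given with and without them.

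Innate sensors start the interferon response. The enzyme cGAS (Mb21d1) detects DNA in the cytosol and signals through STING (Tmem173), Toll-like receptors of the endosome detect nucleic acids taken up by the cell, and both routes use the factors Irf3 and Irf7 to switch on type I interferons such as Ifnb1. Type I interferons then act through Jak1 and Irf9 on a promoter element called the interferon-stimulated response element, and raise antiviral genes such as the Ifit, Oas and Ifitm families together with Irf7. Interferon gamma (Ifng), which comes from T cells and natural killer cells, acts through Ifngr1, Ifngr2, Jak1 and Jak2 on another element, the gamma-activated site or GAS, and raises Irf1, the Gbp genes and the feedback inhibitor Socs1.

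Promoters of 7 members are shown because they carry, or lack, these elements in genes whose levels the results turn on. Each window reaches from 250 bases before the start of the gene to 50 bases after it, written 5′ to 3′ on the strand of the gene, from RefSeq on build GRCm38.p6, and capitals mark every match to GAAANNGAA, the core of the interferon-stimulated response element, or to TTCNNNGAA, the GAS, on either strand. The windows are Ifit3 at chr19:34583279-34583578 (plus strand), Oas3 at chr5:120777610-120777909 (minus strand), Oas1a at chr5:120907476-120907775 (minus strand), Oas1g at chr5:120887564-120887863 (minus strand), Irf7 at chr7:141266375-141266674 (minus strand), Gbp2 at chr3:142620413-142620712 (plus strand) and Irf1 at chr11:53769764-53770063 (plus strand).
Ifit3: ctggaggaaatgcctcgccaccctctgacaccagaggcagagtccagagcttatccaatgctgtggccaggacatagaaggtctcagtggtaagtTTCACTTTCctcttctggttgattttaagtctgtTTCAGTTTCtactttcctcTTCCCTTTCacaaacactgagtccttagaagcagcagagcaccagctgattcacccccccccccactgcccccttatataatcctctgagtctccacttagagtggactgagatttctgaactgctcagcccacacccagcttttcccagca
Oas3: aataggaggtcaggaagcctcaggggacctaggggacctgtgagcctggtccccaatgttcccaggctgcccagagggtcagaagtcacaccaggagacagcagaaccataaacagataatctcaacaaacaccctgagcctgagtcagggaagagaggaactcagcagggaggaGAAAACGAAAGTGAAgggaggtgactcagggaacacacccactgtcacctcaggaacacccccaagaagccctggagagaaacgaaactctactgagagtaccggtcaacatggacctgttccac
Oas1a: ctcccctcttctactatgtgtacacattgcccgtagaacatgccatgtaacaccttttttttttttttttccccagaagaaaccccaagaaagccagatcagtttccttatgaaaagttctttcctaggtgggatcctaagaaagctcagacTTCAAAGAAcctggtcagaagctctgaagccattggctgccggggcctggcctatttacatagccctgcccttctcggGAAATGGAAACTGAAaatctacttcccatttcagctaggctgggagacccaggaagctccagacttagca
Oas1g: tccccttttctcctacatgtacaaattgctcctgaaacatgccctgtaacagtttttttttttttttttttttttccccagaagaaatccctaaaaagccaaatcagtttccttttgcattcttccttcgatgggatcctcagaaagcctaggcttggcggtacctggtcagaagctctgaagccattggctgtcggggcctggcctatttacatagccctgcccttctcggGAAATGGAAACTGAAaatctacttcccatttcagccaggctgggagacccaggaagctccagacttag
Irf7: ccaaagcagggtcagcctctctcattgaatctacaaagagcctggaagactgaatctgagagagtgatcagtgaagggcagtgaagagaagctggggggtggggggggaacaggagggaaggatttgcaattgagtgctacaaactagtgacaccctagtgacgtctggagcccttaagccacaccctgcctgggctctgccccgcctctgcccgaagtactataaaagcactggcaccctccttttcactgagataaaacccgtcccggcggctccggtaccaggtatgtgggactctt
Gbp2: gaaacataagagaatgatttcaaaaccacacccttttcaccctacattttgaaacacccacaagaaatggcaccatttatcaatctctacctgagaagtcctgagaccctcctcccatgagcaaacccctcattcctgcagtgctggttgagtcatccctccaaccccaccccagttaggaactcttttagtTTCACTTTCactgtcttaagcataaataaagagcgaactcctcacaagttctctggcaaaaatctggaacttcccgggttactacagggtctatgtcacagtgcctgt
Irf1: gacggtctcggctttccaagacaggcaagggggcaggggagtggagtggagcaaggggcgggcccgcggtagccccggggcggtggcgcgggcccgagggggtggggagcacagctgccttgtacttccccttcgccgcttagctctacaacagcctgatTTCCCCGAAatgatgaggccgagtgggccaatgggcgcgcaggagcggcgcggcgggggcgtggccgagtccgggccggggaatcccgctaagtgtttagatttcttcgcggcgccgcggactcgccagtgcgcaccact
The Ifit3 window held the core 3 times, with first bases at -155, -121 and -102 from the start. Oas3 held 2 overlapping cores at -75 and -69, and Oas1a and Oas1g held the same run of capitals with overlapping cores at -20 and -14 and at -18 and -12, respectively. Oas1a also held a GAS match at -98, Gbp2 held 1 core at -58, Irf1 held a GAS match at -90 in the first of its 2 windows, and the Irf7 window held neither set of letters. Over all 32851 mouse windows of this length, 8.56% held the core and 8.3% held the GAS. Windows were listed for 34 of the 44 members (77.3%), below the 80% needed to read a share over the members, so single promoters are described and no share is drawn from them. A match is a description of letters and not a measured binding site.

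After radiation the antiviral arm of these genes was higher and several parts of the receptor and signalling chain were lower. Ifit3, an antiviral protein, Irf7, the main amplifier of type I interferon, and Oas3, a synthetase whose product activates RNA decay, were each about 3 to 4 times as high in RT as in control tumours. Of the 37 tested members 10 were higher and 7 lower in RT than in control tumours at an edgeR adjusted p below 0.05, against 20.5% of all 1038 tested genes called higher and 21.1% called lower. The median log2 fold change was 0.07 over the members and -0.01 over all tested genes. By role, 7 of 11 effectors were higher and 0 lower, while among the 9 IRF factors 2 were higher and 3 lower. These directions are set against the middle of each panel's genes: scaling by the 9 reference genes of each panel shifted the all-gene median from -0.010 to 0.188 (log2), with 18 members then higher and 2 lower (all genes: 422 higher and 79 lower, against 213 and 219). In a bulk tumour, fewer cells of a type and less RNA per cell cannot be told apart.

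**Figure D1:**
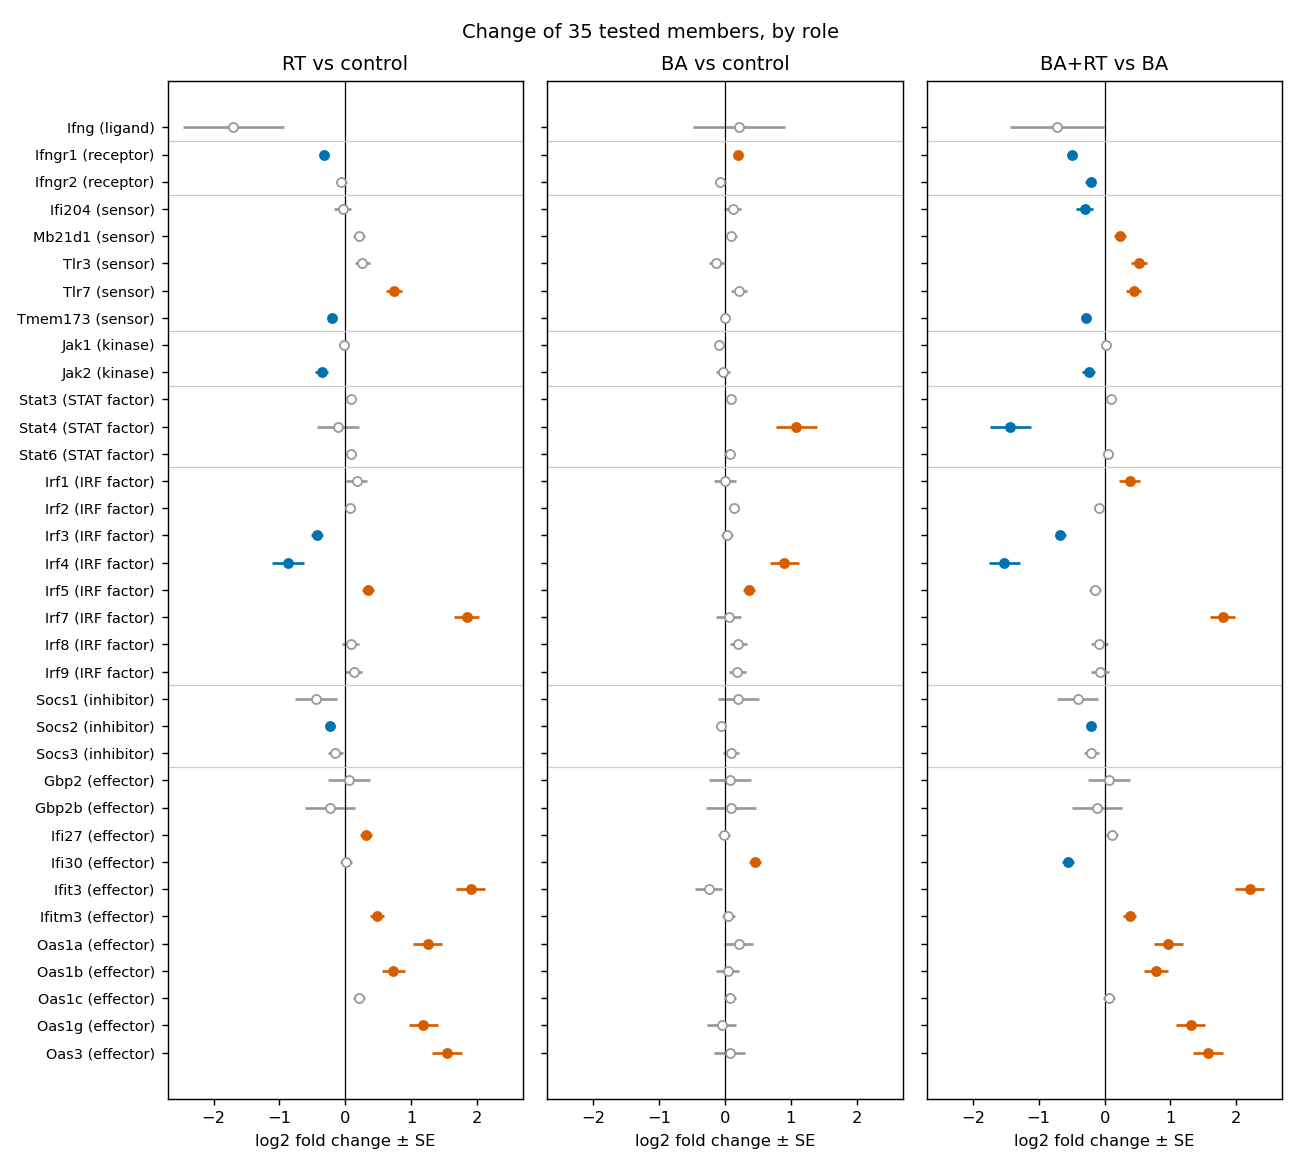
Log2 fold change with its standard error (x axis) of 35 of the 37 tested members, grouped by role (y axis), in RT against control, BA against control and BA+RT against BA. Filled orange points are members called higher, filled blue points lower and open grey points not called by edgeR, with trimmed-mean scaling. The effectors hold the largest increases after radiation (Ifit3 1.90 and 2.20), and few points leave 0 with BA alone. With reference-gene scaling 4 of the 6 members drawn as lower in RT no longer pass.

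The effectors that rose most were separated from the controls mouse by mouse. Ifit3 stood at 142 to 471 CPM (median 218) in control tumours and at 705 to 1182 CPM (median 1041) in RT tumours, so no RT tumour reached down to a control tumour (3.74-fold, log2 fold change 1.90, SE 0.22, edgeR adjusted p = 1.38e-08). Oas3 ranged from 69 to 222 CPM (median 85.7) in control tumours and from 233 to 419 CPM (median 292) in RT tumours, again without overlap (2.91-fold, log2 1.54, SE 0.23, edgeR adjusted p = 1.86e-06). Both amplicons cover coding sequence on GRCm38, that of Ifit3 on chromosome 19 at 34588195 to 34588297, where it also reaches the untranslated region, and that of Oas3 on chromosome 5 at 120769269 to 120769363. The promoters of both genes hold the core of the response element, as printed above.

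Other Oas genes rose less and with more overlap. Oas1a was at 19.7 to 76.6 CPM (median 38.1) in control and 64.6 to 114 CPM (median 94.8) in RT tumours, and Oas1g at 20.5 to 58.7 CPM (median 28.8) and 48.2 to 92.9 CPM (median 78.9). In both genes the control range was stretched upward by mouse 8, the highest of the 9 control mice. The edgeR log2 fold changes were 1.25 for Oas1a (adjusted p = 2.37e-05) and 1.18 for Oas1g (adjusted p = 4.92e-05). Oas1a and Oas1g are close copies of each other, and the sources used here do not say how reads that match both were counted, so the share of each is uncertain. Oas1b, another synthetase of this cluster, rose by 0.73 (SE 0.18, edgeR adjusted p = 0.00135). Oas1c, whose window also holds the core, did not pass with all mice (0.21, SE 0.09, edgeR adjusted p = 0.0549). Its call stood close to the threshold. It was called with reference genes (0.42, edgeR adjusted p = 7.52e-05). Leaving out control mouse 3 or 8, BA mouse 12, or RT mouse 19 or 20 also gave a call, at 0.21 to 0.23.

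Ifitm3, a membrane protein that blocks virus entry, rose 1.4-fold from an already high level: 5417 to 8738 CPM (median 6386) in control and 7663 to 10828 CPM (median 8925) in RT tumours (log2 0.48, SE 0.10, edgeR adjusted p = 0.000114). Apart from control mouse 8, the next highest control was at 6890 CPM, below every RT tumour. Ifi27, an interferon-induced mitochondrial protein, rose by 0.31 (SE 0.09, edgeR adjusted p = 0.00546). Ifi30, a lysosomal thiol reductase of antigen processing, was level between the 2 groups (log2 0.01, SE 0.09), and the guanylate-binding GTPases Gbp2 and Gbp2b did not pass (0.06 with SE 0.32 and -0.24 with SE 0.38). Without control mouse 8 these were 0.58 and 0.46, and still did not pass (edgeR adjusted p = 0.0521 and 0.222). Without control mouse 8, BA mouse 16, RT mouse 27 and BA+RT mouse 40, a setting chosen after seeing the data, Gbp2 passed and Gbp2b did not. Gbp2 was then at 0.47 (edgeR adjusted p = 0.0415).

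**Figure D2:**
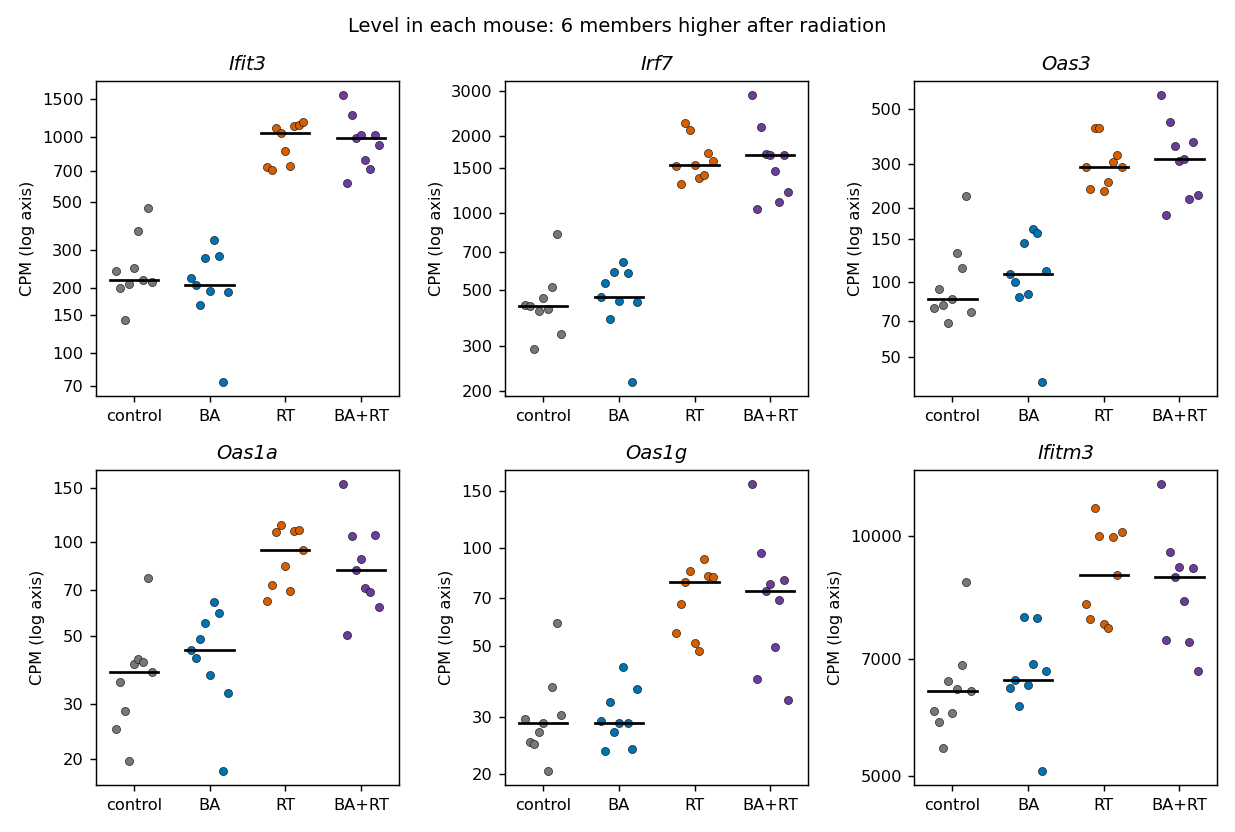
Level of 6 members in every mouse, in CPM on a log axis, with 1 point per mouse, 9 mice per group and a black line at the group median. The RT and BA+RT points of Ifit3 and Irf7 lie above every control and BA point, with Ifit3 medians of 218, 206, 1041 and 989 CPM in control, BA, RT and BA+RT. Oas1a, Oas1g and Ifitm3 overlap between groups. Oas3 does so too, with the lowest BA+RT tumour at 187 CPM and the highest control tumour at 222 CPM.

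The interferon regulatory factors went in different directions. Irf7 was at 294 to 826 CPM (median 433) in control and 1298 to 2233 CPM (median 1542) in RT tumours, with no overlap (3.57-fold, log2 1.84, SE 0.19, edgeR adjusted p = 2.56e-09). Irf3, its constitutively made relative that acts directly below the sensors, fell by 0.43 (SE 0.09, edgeR adjusted p = 0.000185), from 182 to 334 CPM (median 236) to 141 to 222 CPM (median 178). Thus of the factors that switch on type I interferon genes one was higher and the other lower in the same tumours, and reference-gene scaling left both calls. Irf5, a factor of Toll-like receptor signalling in myeloid cells, rose by 0.34 (SE 0.09, edgeR adjusted p = 0.00209), although RT mouse 22 at 206 CPM lay below the other RT mice, the nearest of which was at 274 CPM.

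Irf4, a factor of lymphocytes, fell by 0.87 (SE 0.24, edgeR adjusted p = 0.00365), from 4.45 to 11.3 CPM to 2.01 to 7.14 CPM, on only 4 to 12 counts in an RT library. The 8 T cell markers measured had a summed level of 32.3 to 176 CPM in control and 11.6 to 146 CPM in RT tumours. Its median went from 44.8 to 21.2 CPM, Cd2 and Cd5 were called lower, the markers' median log2 fold change was -0.96, and their part in the Irf4 result was not tested. Irf1, Irf2, Irf8 and Irf9 did not pass, with log2 fold changes of 0.07 to 0.17. Without control mouse 8, RT mouse 27 and BA+RT mouse 40, a setting chosen after seeing the data, Irf1 (0.35), Irf2 (0.13) and Irf8 (0.23) passed. Leaving out control mouse 8 alone gave calls for Irf1 (0.40, edgeR adjusted p = 0.00389) and Irf2 (0.12, edgeR adjusted p = 0.0404), and reference genes gave calls for Irf2 (0.28) and Irf9 (0.33).

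Among the sensors, Tlr7, the endosomal receptor for single-stranded RNA, rose most. It was at 77.1 to 126 CPM (median 107) in control and 119 to 229 CPM (median 174) in RT tumours (log2 0.74, SE 0.12, edgeR adjusted p = 3.33e-06). The lowest RT mouse lay just below the highest control mouse. The 6 macrophage markers measured summed to 3590 to 4347 CPM in control and 3416 to 4862 CPM in RT tumours, ranges that overlap, with 3 of them higher and 1 lower, and their part in the Tlr7 result was not tested. The receptor for double-stranded RNA, Tlr3, and cGAS (Mb21d1) did not pass (0.26, SE 0.12, adjusted p = 0.0699, and 0.21, SE 0.09, adjusted p = 0.0623, edgeR). Both were called with reference genes, at 0.47 and 0.42, and Tlr3 also without control mouse 8 (0.33, edgeR adjusted p = 0.0101). cGAS was called without control mouse 3, 7 or 9 or RT mouse 20, at 0.23 to 0.25. STING (Tmem173) fell by 0.21 (SE 0.05, edgeR adjusted p = 0.00197), and did not pass under reference-gene scaling (adjusted p = 0.983). Ifi204, a DNA-binding protein of the p200 family, did not pass (-0.04, SE 0.13).

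Below the sensors, parts of the interferon gamma chain were lower in RT tumours. Its receptor chain Ifngr1 was at 862 to 1144 CPM (median 1028) in control and 748 to 942 CPM (median 809) in RT tumours (log2 -0.32, SE 0.06, edgeR adjusted p = 0.000102). The kinase Jak2, which sits on the other chain, fell by 0.36 (SE 0.10, edgeR adjusted p = 0.00326), and Socs2, an inhibitor known from growth hormone signalling, by 0.24 (SE 0.05, edgeR adjusted p = 0.000194). None of these 3 passed under reference-gene scaling, with -0.11 for Ifngr1, -0.15 for Jak2 and -0.03 for Socs2. The chain Ifngr2 (-0.06, SE 0.08) and the shared kinase Jak1 (-0.02, SE 0.05) did not pass, and Jak1 was called higher at 0.19 with reference genes. The STAT factors Stat3 (0.09, SE 0.05), Stat4 (-0.11, SE 0.32) and Stat6 (0.08, SE 0.08) did not pass, although Stat3 (0.29) and Stat6 (0.25) were called with reference genes. The inhibitors Socs1 (-0.44, SE 0.32) and Socs3 (-0.15, SE 0.12) did not pass either, and Socs1 was at 0.15 without control mouse 8. The ligand Ifng itself had 0 to 25 counts in an RT library and did not pass (-1.70, SE 0.77, edgeR adjusted p = 0.0742), although DESeq2 called it (-1.75, adjusted p = 0.0488). Control mouse 8 held 96 of the 127 control counts of Ifng, and without it the log2 fold change was 0.09 (SE 0.71, edgeR adjusted p = 0.939). Leaving out control mouse 1, control mouse 7 or RT mouse 27 gave -2.36 to -1.88, which passed.

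The type I interferon genes were read at or near the limit of the panel. Ifna2 had 0 counts in all 18 unirradiated libraries and 39 counts in 16 of the 18 irradiated ones, 25 in RT and 14 in BA+RT. Set over a floor of 3 counts for a whole unirradiated group, the Ifna2 counts gave 6.48-fold for RT over control and 3.38-fold for BA+RT over BA. These ratios leave out the counting error of the irradiated groups and are not lower bounds. The exact 95% Poisson intervals were 0.922 to 2.1 CPM (unscaled group totals) in RT and 0.441 to 1.35 in BA+RT. The upper limits were 0.27 in control and 0.294 in BA. Ifna2 was called when no filter was applied (edgeR adjusted p = 5.49e-05 for RT against control and 0.000667 for BA+RT against BA). The genomic DNA control rows of the same panel had 0 counts in both unirradiated groups, 4 in RT and 3 in BA+RT, each in a separate library. Interferon alpha genes carry no introns and are close copies of each other, so neither genomic DNA nor reads of a neighbour gene is told apart from Ifna2 transcripts here, and their part in the result was not tested.

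Ifnb1, the first interferon that most cells make, had 19 counts in control, 11 in BA, 39 in RT and 46 in BA+RT libraries, or 1.39, 0.877, 2.22 and 2.65 CPM (unscaled group totals) with exact 95% Poisson intervals of 0.839 to 2.18, 0.438 to 1.57, 1.58 to 3.04 and 1.94 to 3.54, which cover counting error only. With no filter the RT against control difference did not pass (edgeR adjusted p = 0.179), and BA+RT was called higher than BA (1.55, edgeR adjusted p = 0.00102) and than control (0.91, edgeR adjusted p = 0.0354). The part of genomic DNA, described above for Ifna2, was not tested for Ifnb1 either. Oas1d had 3, 6, 33 and 30 counts in control, BA, RT and BA+RT, found in 1, 3, 9 and 9 libraries (RT against control, no filter, edgeR adjusted p = 0.000375). Ifna14 had 3 counts in all, Oas1f 4, Oas1h 8 and Oas1e 11, and none of these was called in any comparison without the filter.

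Bintrafusp alfa alone touched few of these genes, and none of the 7 effectors called with radiation was called with it. Against control tumours 5 of the 37 members were higher and 0 lower in BA tumours at an edgeR adjusted p below 0.05, with 12.5% of all tested genes called higher and 14.5% lower. The 5 were Ifi30, Irf5, Ifngr1, Irf4 and Stat4. The members' median log2 fold change was 0.07, against 0.00 over all genes, and reference-gene scaling kept the count of 5 higher and 0 lower (all genes: 99 higher and 183 lower, against 130 and 150). Without control mouse 8, however, 13 members were higher and 0 lower (all genes: 168 higher and 181 lower), as described further on.

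Ifi30 was at 909 to 1356 CPM (median 1042) in control and 1323 to 1697 CPM (median 1505) in BA tumours (1.37-fold, log2 0.45, SE 0.09, edgeR adjusted p = 0.000178). Irf5 was at 172 to 285 CPM (median 239) and 263 to 356 CPM (median 292) in the same groups (log2 0.36, SE 0.09, edgeR adjusted p = 0.00235). In both genes the lowest BA mouse lay just under the highest control mouse. The summed macrophage markers were at 3590 to 4347 CPM in control and 3933 to 4716 CPM in BA tumours, with Csf1r and Msr1 higher and Adgre1 lower, and their part in the Ifi30 and Irf5 results was not tested. Ifngr1 rose by 0.20 (SE 0.06, edgeR adjusted p = 0.0213), a call that was lost without control mouse 6, BA mouse 11 or BA mouse 14.

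The lymphocyte factors Irf4 and Stat4 were at low counts. Stat4, the factor of interleukin-12 signalling in T and natural killer cells, was at 2.8 to 10.5 CPM (median 7.2) in control and 9.37 to 22 CPM (median 13.9) in BA tumours, on 3 to 28 counts a library (2.11-fold, log2 1.08, SE 0.31, edgeR adjusted p = 0.00957). Irf4 was at 4.45 to 11.3 CPM (median 7.46) and 9.37 to 23.5 CPM (median 13.8), on 7 to 34 counts (1.86-fold, log2 0.90, SE 0.22, edgeR adjusted p = 0.00272). The T cell markers summed to a median of 44.8 CPM in control and 149 CPM in BA tumours, with 3 of 8 called higher, and 2 of 4 natural killer cell markers were called higher and 1 lower. Their part in the Irf4 and Stat4 results was not tested. The Stat4 amplicon also lies in an exon of the annotated gene Gm28177, and that of Ifng in one of Gm49751.

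**Figure D3:**
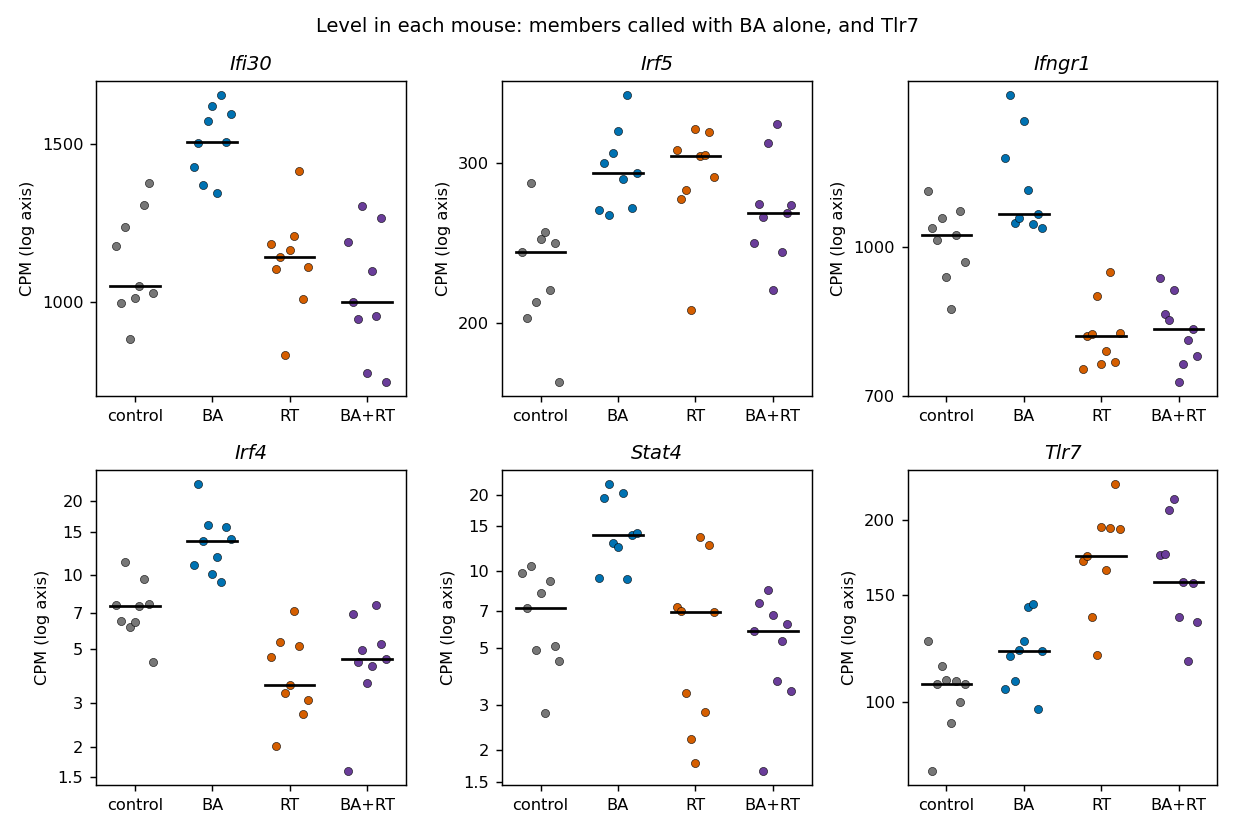
Level of the 5 members called with BA alone, and of Tlr7, in every mouse, in CPM on a log axis (9 mice per group, black line at the median). The BA points of Ifi30, Irf4 and Stat4 lie mostly above those of the other 3 groups. Irf5 has medians of 292 and 305 CPM in BA and RT and of 264 CPM in BA+RT.

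In tumours given both treatments the antiviral genes again led the rise. This comparison shares its controls with that of RT. Against control tumours 12 members were higher and 8 lower in BA+RT tumours, with 23.4% of all tested genes called higher and 24.2% lower by edgeR. Ifit3 (1.95, SE 0.22, 3.86-fold), Irf7 (1.85, SE 0.19, 3.6-fold), Oas3 (1.64, SE 0.23, 3.12-fold), Oas1g (1.26, SE 0.22), Oas1a (1.18, SE 0.22) and Oas1b (0.82, SE 0.18) led the rise. Tlr7 (0.65), Tlr3 (0.39), cGAS (Mb21d1, 0.32), Ifitm3 (0.42), Irf5 (0.22) and Stat3 (0.18) made up the other 6. Among the 8 that fell were Irf3 (-0.65), Irf4 (-0.62), Ifngr1 (-0.31), Ifngr2 (-0.28), STING (Tmem173, -0.28), Jak2 (-0.27) and Socs2 (-0.27). The Irf5 call was lost without any 1 of 18 mice and that of Irf4 without control mouse 3 or 7. Irf1 did not pass with all mice (0.38, edgeR adjusted p = 0.0541) but did without control mouse 8 (0.61, edgeR adjusted p = 3.54e-05), as did Gbp2 (0.67, against 0.14 with all mice). Leaving out only that mouse keeps BA+RT mouse 40, at 5256 CPM of Gbp2, which raises the difference by construction. Without the 3 high Gbp2 mice of control, RT and BA+RT, Irf1 passed (0.53) and Gbp2 did not. Without the 4 mice of highest Gbp2, 1 per group, both passed (Irf1 0.56, Gbp2 0.52 with edgeR adjusted p = 0.0223). Both settings were chosen after seeing the data. With reference genes, which shifted the all-gene median from 0.009 to 0.143 (log2), 18 members were higher and 2 lower (all genes: 387 and 157, against 243 and 251). Irf3 kept its call, and Irf4, Ifngr1, Ifngr2, STING (Tmem173), Jak2 and Socs2 did not pass (edgeR adjusted p = 0.0641 to 0.298).

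Adding radiation to BA gave 11 members higher and 11 lower in BA+RT than in BA tumours, with 27.1% of all tested genes called higher and 26.4% lower by edgeR. Ifit3 went from 73.3 to 333 CPM (median 206) in BA tumours to 612 to 1564 CPM (median 989) in BA+RT tumours, with no overlap (4.59-fold, log2 2.20, SE 0.22, edgeR adjusted p = 7.06e-10). Irf7 (1.79), Oas3 (1.57), Oas1g (1.31), Oas1a (0.97), Oas1b (0.78), Tlr3 (0.52) and Tlr7 (0.44) were next. Tlr3, which had not passed in RT against control, was at 306 to 499 CPM (median 408) in BA and 402 to 746 CPM (median 618) in BA+RT tumours (edgeR adjusted p = 0.000385). Whether its change differed between the comparisons was tested by the interaction, which it did not pass (0.26, SE 0.16, edgeR adjusted p = 0.361).

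The members that fell in the same comparison included both lymphocyte factors that BA alone had raised. Irf4 fell by 1.52 (SE 0.23, edgeR adjusted p = 1.34e-06), from a median of 13.8 CPM to 4.54 CPM, and Stat4 by 1.43 (SE 0.31, edgeR adjusted p = 0.00029), from 13.9 CPM to 5.86 CPM. The T cell markers went from a median sum of 149 CPM to 35.5 CPM in these groups, with 7 of 8 called lower, and their part in the Irf4 and Stat4 results was not tested. Irf3 fell by 0.67, Ifi30 by 0.55, Ifngr1 by 0.50, STING (Tmem173) by 0.28, and Jak2, Ifngr2, Socs2 and Ifi204 by 0.21 to 0.30. The calls of Irf1 (0.38 higher), Ifi204, Jak2 and cGAS (Mb21d1) stood close to the threshold, with edgeR adjusted p values of 0.0485, 0.0482, 0.0386 and 0.0337, and they were lost by leaving out any 1 of 27, 14, 9 and 9 of the 36 mice. With reference genes, which shifted that median from 0.021 to 0.199, 16 members were higher and 5 lower (all genes: 472 and 147, against 281 and 274). STING (Tmem173), Jak2, Ifngr2, Socs2 and Ifi204 then did not pass (edgeR adjusted p = 0.279 to 0.912).

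Adding BA to radiation moved none of the members past the threshold. BA+RT and RT tumours differed in 0 of 37 members by edgeR, with 3 at an unadjusted p below 0.05, against 3.66% of all tested genes called higher and 7.13% lower, and DESeq2 and limma also called 0. Ifngr2 came closest, at 562 to 729 CPM (median 675) in RT and 484 to 664 CPM (median 560) in BA+RT tumours (log2 -0.21, SE 0.08, edgeR adjusted p = 0.0571), and it was called without control mouse 9, RT mouse 25 or BA+RT mouse 45. The log2 fold changes of Ifit3, Irf7 and Oas3 were 0.05, 0.01 and 0.10, with standard errors of 0.19 to 0.22. With reference genes Ifi27 (-0.25) and Irf3 (-0.25) were called lower, and the split of all genes was 19 higher and 96 lower, against 38 and 74.

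The interaction compares the effect of BA in irradiated tumours with its effect in tumours without radiation. Of the members 0 were higher and 2 lower in this test, with 3.37% of all tested genes called higher and 4.91% lower by edgeR. For Ifi30 the change with BA was 0.45 without radiation and -0.11 with it, a difference of -0.56 (SE 0.12, edgeR adjusted p = 0.00349). For Irf5 the changes were 0.36 and -0.12, a difference of -0.48 (SE 0.13, edgeR adjusted p = 0.0116), which did not pass under reference-gene scaling (adjusted p = 0.0634). Of the macrophage markers Cd14, Cd68 and Msr1 were also lower in the interaction, and their part in the Ifi30 and Irf5 results was not tested. Stat4 had the largest difference in size, -1.32 (SE 0.45), and did not pass in edgeR (adjusted p = 0.0624) but did in DESeq2 (adjusted p = 0.0482).

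**Figure D4:**
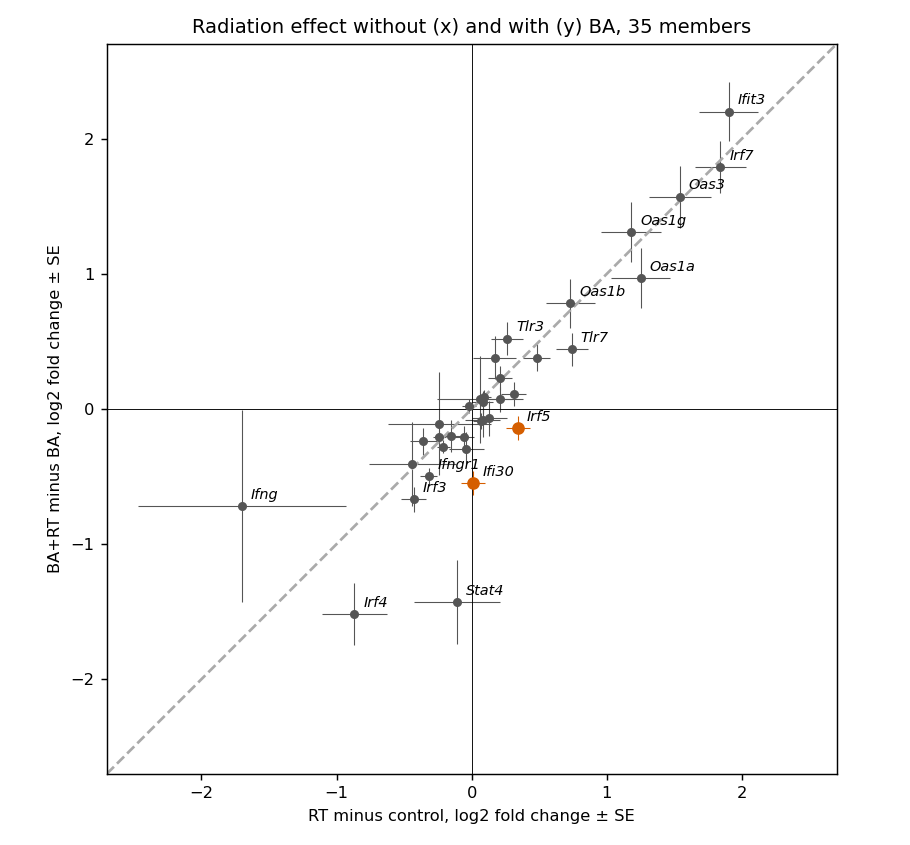
Log2 fold change with radiation in tumours without BA (RT minus control, x axis) and with BA (BA+RT minus BA, y axis) for 35 of the 37 tested members, with standard errors and a dashed line of equal change. The comparisons share no mice. Ifit3 (1.90 and 2.20), Irf7 (1.84 and 1.79) and Oas3 (1.54 and 1.57) lie near the line, and the orange points are the members that differ by the interaction test, Ifi30 (0.01 and -0.55) and Irf5 (0.34 and -0.14).

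Genes of the interferon gamma arm had single high mice in the control, RT and BA+RT groups. Gbp2 was at 1189 to 2939 CPM in 8 control tumours and at 8590 CPM in control mouse 8, and RT mouse 27 (4406 CPM, the next RT mouse at 2659) and BA+RT mouse 40 (5256 CPM, the next at 2950) stood apart in the same way. In the BA group mouse 16 was highest at 5175 CPM with the next at 3413 CPM, and no BA mouse passed Dixon's test as high in any tested member. Ifng was at 61.3 CPM in control mouse 8, from 96 counts, against at most 4.66 CPM in the other 8 control mice. Ifng and Gbp2 had their highest value in the same mouse of each group. Control mouse 8 was the highest of the 9 control mice in 22 of 37 members (59.5%), against 18.3% of all tested genes. The 22 were not only of the interferon gamma arm and included Ifit3, Irf7, Oas1a, Oas1g, Oas3 and Ifitm3. BA mouse 16 was the highest BA mouse in 13 members (35.1%, against 11.8% of all tested genes), and BA+RT mouse 37 the highest of its group in 15 (40.5%, against 22.7%).

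Cell markers were high in some of these mice and not in others. The 4 natural killer cell markers measured summed to 234 CPM in control mouse 8, the highest of its group, and to 254 CPM in BA+RT mouse 40, also the highest, while the T cell markers stood at 124 CPM, second among the controls, and at 119 CPM, the highest of the BA+RT group. Klrk1 alone reached 160 CPM in a control tumour, against a control median of 34.6 CPM. Only mouse 8 had a control sum above that level (the next was 158 CPM), so its high sum came mostly from Klrk1. RT mouse 27 had 153 CPM of natural killer and 25.2 CPM of T cell markers, the second and the fourth of its group, and BA mouse 16 had 216 and 178 CPM, the second and the third. The macrophage markers of control mouse 8 were at 3854 CPM, the median of its group. The part of these cells in the single high values was not tested.

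Without control mouse 8 the BA group was called higher than the remaining 8 controls in 13 members. Of all tested genes 16.1% were then called higher and 17.4% lower, against 12.5% and 14.5% with all mice. Among the 8 members added were Gbp2 (0.61, edgeR adjusted p = 0.0498), Gbp2b (0.81), Socs1 (0.81, edgeR adjusted p = 0.00515), Ifng (2.01, edgeR adjusted p = 0.0174), Irf8 (0.36), Irf9 (0.31) and Irf2 (0.21). With all 9 controls the same comparison gave 0.07 (SE 0.32) for Gbp2 and 0.21 (SE 0.70) for Ifng. That setting removes the highest interferon gamma mouse from the controls and keeps BA mouse 16, which raises the BA difference by construction. Without the mouse of highest Gbp2 in each of the 4 groups (8, 16, 27 and 40), also chosen after seeing the data, 8 members were higher in BA tumours. Of all tested genes 15.2% were higher and 14.5% lower in that setting. Socs1 (0.68), Irf8 (0.33) and Irf2 (0.21) then joined the 5 called with all mice, and Gbp2 (0.43, edgeR adjusted p = 0.0846) and Gbp2b (0.55, edgeR adjusted p = 0.0654) did not pass. In RT against control, leaving out control mouse 8 gave 14 members higher and 7 lower instead of 10 and 7. The shares over all tested genes were 20.8% and 22.6%, against 20.5% and 21.1% with all mice. Gbp2 and Gbp2b are neighbouring close copies, so their separate levels are uncertain.

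**Figure D5:**
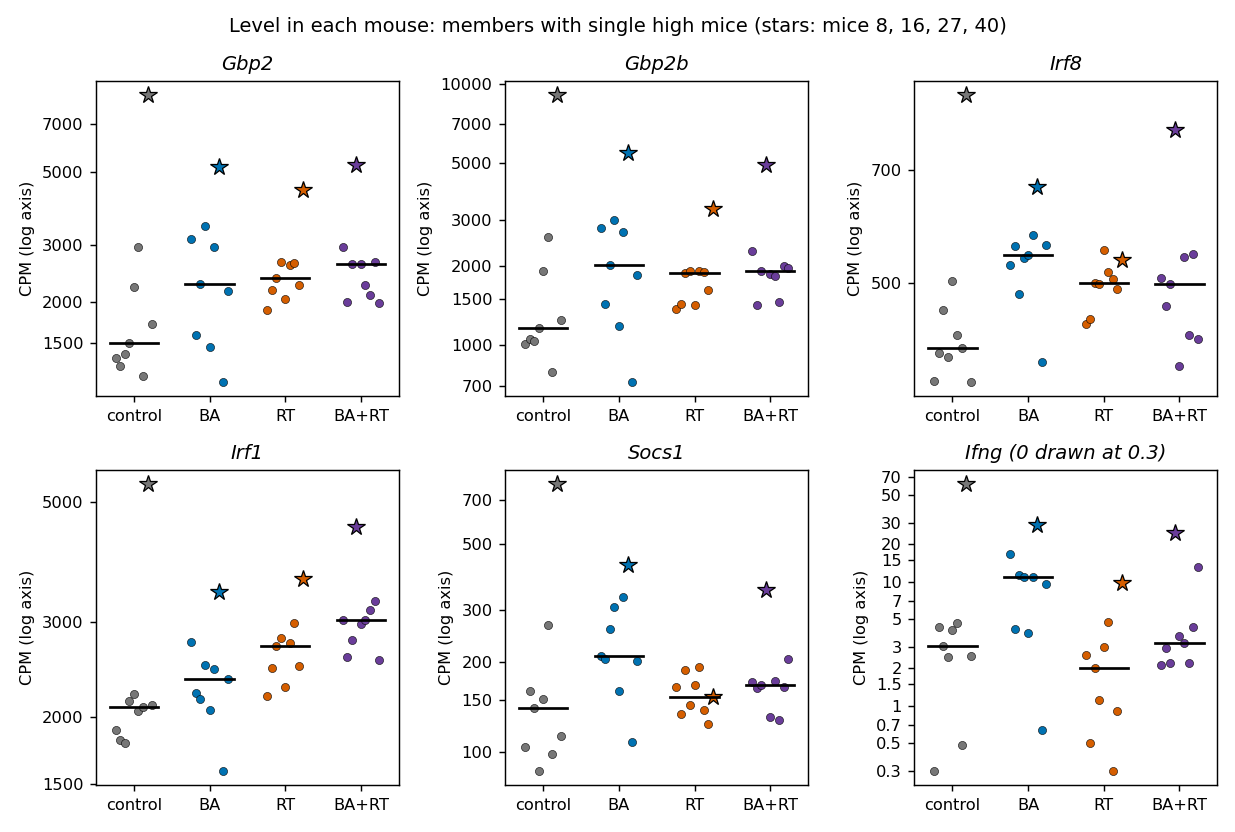
Level of 6 interferon gamma arm members in every mouse, in CPM on a log axis (9 mice per group, black line at the median). Stars mark control mouse 8, BA mouse 16, RT mouse 27 and BA+RT mouse 40, which top their groups in all 6 genes except RT mouse 27 for Irf8 and Socs1, and Ifng values of 0 are drawn at 0.3.

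BA mouse 17 stood at the other end, for antiviral genes and for genes of the interferon gamma arm. Its Ifit3 was at 73.3 CPM with the next BA mouse at 166 CPM, its Irf7 at 218 CPM with the next at 383 CPM, its Oas3 at 39.8 CPM with the next at 87.1 CPM and its Irf9 at 514 CPM with the next at 694 CPM. The same mouse was the lowest BA mouse in Gbp2 (1139 CPM), Gbp2b (723), Irf1 (1590), Irf8 (395), Socs1 (109) and Ifng (0.632). It was the lowest BA mouse in 16 of 37 members (43.2%), against 12.8% of all tested genes. Its T cell markers summed to 75.2 CPM, the lowest of its group. Its natural killer cell markers summed to 140 CPM (rank 7 from the highest) and its macrophage markers to 4551 CPM (rank 3). The part of these cells in its low values was not tested.

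Other genes of these pathways, which the symbol rule does not take, were measured beside the members. Of 13 tested sensing and adaptor genes 5 were higher and 0 lower in RT than in control tumours, with a median log2 fold change of 0.14, beside 20.5% of all tested genes higher, 21.1% lower and a median of -0.01. With reference genes 10 of the 13 were higher and 0 lower (median 0.33, against 0.19 over all genes). Ddx58, the RNA sensor RIG-I, rose by 0.93 without overlap, from 252 to 394 CPM to 539 to 729 CPM (edgeR adjusted p = 6.55e-10), and Zbp1, a sensor of left-handed nucleic acid, rose by 1.15 (edgeR adjusted p = 4.72e-05). The others were Ikbke (0.52), a kinase that activates Irf3 and Irf7, Trex1 (0.44), an exonuclease that removes cytosolic DNA, and the adaptor Myd88. Of 23 tested interferon-induced genes 11 were higher and 1 lower (median 0.28), among them the transporter Tap2 (1.23) and the chemokine Cxcl10 (1.04), while Ciita, the activator of class II genes, fell by 2.06 (edgeR adjusted p = 0.000175). Ciita was at 689 CPM in control mouse 8 with the next control at 126 CPM, and without that mouse it fell by 1.29 (edgeR adjusted p = 0.000945). With reference genes 14 of the 23 were higher and 1 lower (median 0.49). With BA alone 0 of these 36 genes were called in either direction by edgeR with all mice, but without control mouse 8 1 of the 13 and 9 of the 23 were higher, and without mice 8, 16, 27 and 40 0 and 7. Of all tested genes 12.5%, 16.1% and 15.2% were higher and 14.5%, 17.4% and 14.5% lower in these settings, in that order. Bst2, the only one of 5 plasmacytoid dendritic cell markers measured, is itself interferon-induced and rose by 0.74 in RT tumours, and the dendritic cell list had no gene on the panels.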

How the data were processed

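RNA of each tumour was read with both Qiagen panels, giving 72 libraries from 36 mice. The deposited table holds raw whole-number counts per amplicon, per the file headers and the values, and the sources used here name no aligner, counter or use of molecular barcodes. The other deposited table holds log2 values, the regularized log of DESeq2 per the submitters' processing notes, and served only as an alternative. Position columns are headed GRCh38, but all 46 member amplicons lay inside the named mouse gene on GRCm38, 30 in coding exons only, 7 in untranslated regions only, 8 across both and 1 in an exon with neither annotated. Coordinates are as deposited. The 10 genomic DNA control rows (2.32e-05% of counts) were left out of totals and tests.

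Each panel was fitted alone with all 4 groups in edgeR 4.0.16 (R 4.3.3): trimmed-mean factors, filterByExpr by group with a minimum count of 10, and its robust quasi-likelihood F test (two-sided). Adjusted p values are Benjamini-Hochberg over the 1038 genes tested, and a gene was called below 0.05. The fit was tested on simulated data. SE is the absolute log2 fold change over the square root of F, and CPM uses trimmed-mean library sizes. Replicates are separate mice, and no pair of libraries in a group agreed within sampling noise (lowest chi-square per degree of freedom 6.32). Members, lists, tests and alternatives were chosen with earlier results of these data known, and the fits follow an earlier analysis of these files. Named with values were the tested ligands, receptors, kinases, STAT factors, inhibitors and sensors, the 12 called members with the largest change in each comparison, and those called in the interaction, while others were chosen after their values were seen. Some members are counted but not reported here. Alternatives were other factors, no filter, DESeq2 1.42.0, limma 3.58.1, fits of only the groups compared, the smaller panel and leaving out mice.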

Additional observations from a re-analysis of the deposited data

Results flagged for a closer look

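Of 148 sets of 9 mice (37 members in 4 groups) 27 held a mouse whose gap to its nearest neighbour passed Dixon's critical value at 95%, where chance alone flags about 5% of independent sets. These sets are not independent, because the same mice were read for every member. The rate over all tested genes was not measured. Control mouse 8 was the high mouse in several of them, with 8590 CPM of Gbp2, 9043 of Gbp2b, 5402 of Irf1, 1385 of Irf2, 873 of Irf8, 1106 of Irf9, 792 of Socs1, 8738 of Ifitm3, 773 of Tmem173 and 61.3 of Ifng. BA+RT mouse 40 stood above its group at 5256 CPM of Gbp2, 4878 of Gbp2b, 4503 of Irf1, 788 of Irf8 and 349 of Socs1. RT mouse 27 did so at 4406 CPM of Gbp2 and 3327 of Gbp2b.

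BA mouse 17 lay below its group at 73.3 CPM of Ifit3, 218 of Irf7, 39.8 of Oas3 and 514 of Irf9. RT mouse 22 was low in Irf5 at 206 CPM. BA+RT mouse 45 was high in Socs3 at 1076 CPM. This mouse and control mouse 6 also stood apart over all genes. They had the highest value of their group in 24.5% and 24.4% of them and the lowest in 28% and 30.8%. BA+RT mouse 37 came close, with 22.7% highest and 21.5% lowest, and RT mouse 22 had 21.6% and 14.8%. The setting without mice 6 and 45 kept both.

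The effect of BA was different with and without radiation for Ifi30, by -0.56, and for Irf5, by -0.48 on the log2 scale, both by the edgeR interaction test. In rows outside the main measurement, the genomic DNA controls of panel 1 had 4 counts in RT and 3 in BA+RT libraries against 0 in control, and those of panel 2 had 3 and 7 against 1.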

How the results depend on the processing

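Leaving out each mouse in turn gave 17 to 21 members called in RT against control, 4 to 13 in BA against control, 18 to 24 in BA+RT against control, 18 to 22 in BA+RT against BA, 0 to 1 in BA+RT against RT and 2 to 3 in the interaction, and the 13 came from leaving out control mouse 8. Without control mouse 8, RT mouse 27 and BA+RT mouse 40, chosen after seeing the data, 13 members were called in BA against control, among them Irf1 at 0.25 (edgeR adjusted p = 0.0375), whose estimate was -0.00 with all mice, and 4 in the interaction. That setting keeps BA mouse 16, the BA mouse of highest Gbp2, and without it as well 8 members were called in BA against control, with Irf1 not among them, and 5 in the interaction. Of all tested genes 16.9% were higher and 18.2% lower in BA against control without the 3 mice, and 15.2% and 14.5% without the 4. In the interaction these shares were 5.49% and 8.57%, and 4.73% and 7.72%. In BA+RT against RT the count of 0 became 2 with reference genes, 2 with only the groups compared and 1 without mice 6 and 45. Reference genes left 1 member in the interaction and turned Jak1 in RT against control from -0.02 to 0.19 (edgeR adjusted p = 0.00276). The cause was not tested. The factors of DESeq2, the unfiltered fit, DESeq2, limma on the deposited log2 values and the smaller panel kept every count within 1.5 times that reported. No paired analysis was possible because mouse numbers are not shared between groups. Counts under 50 in all or most libraries limit Irf4, Stat4, Ifng and the members below the filter. Oas1a and Oas1g also had unirradiated libraries under 50, down to 29 and 22 counts.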
